A study of Mus musculus with 10 samples.

Results

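The genes described here are 33 interferon-stimulated genes, taken by name from a list of known interferon-stimulated genes, out of 24411 genes listed in the count table. They were measured by RNA-seq in mouse lumbar spinal cord, in 5 libraries after treatment with paclitaxel and 5 after vehicle, a model of the painful neuropathy that this microtubule-stabilising cancer drug causes. Strain, sex, age, dose and time after treatment were not given in the sources used here. Nor do the labels say whether each library came from its own animal, and p-values then reflect only how these samples spread, which may be technical. Of the 33 members, 24 had enough counts to be tested and 9 did not: Zbp1, Irf7, Oas1a, Isg15, Usp18, Bst2, Rsad2, Ifi27l2a and Ifi44. Library totals ran from 3676259 to 7791594 counts, so 3 counts corresponded to 0.385 to 0.819 CPM (counts scaled to library size) and members near 1 CPM rested on a handful of reads.

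Interferons are secreted when a cell senses viral nucleic acid or its own misplaced DNA or RNA. Type I interferons bind a receptor built from Ifnar1 and Ifnar2, whose kinases Jak1 and Tyk2 phosphorylate Stat2, which joins Irf9 in a complex that binds interferon-stimulated response elements in promoters. The genes it switches on include RNA sensors, enzymes that block viral RNA and membrane proteins that stop viral entry, and they include Stat2, Irf9 and Irf7 themselves, which feed the response. In the central nervous system microglia, astrocytes and endothelium can all respond, and a low tonic level of these transcripts is present without infection.

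The promoters are shown because the response element in them is how the pathway reaches its targets. RefSeq promoter windows on GRCm38.p6, running from 250 bases before to 50 bases after each transcription start, were available for 25 of the 33 members. The letters searched, on both strands, were GAAA, any 2 bases, then GAAA, a core of the response element, and matches may overlap each other. They stood in the window of 13 of the 25 members (52.0%) and of 3.99% of 27025 genes. The letters TTC, any 3 bases, then GAA, a core of STAT binding sites, stood in 9 of the 25 members (36.0%) and in 9.55% of genes. The stretches printed next, 5′ to 3′ on the gene's own strand, are those of the 9 members whose element lies before the start. Capitals mark the element in either orientation.
Isg15 (chr4:156200855-156200916, minus strand): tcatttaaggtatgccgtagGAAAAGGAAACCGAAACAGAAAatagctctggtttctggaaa
Oas1a (chr5:120907526-120907565, minus strand): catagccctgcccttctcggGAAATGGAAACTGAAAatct
Bst2 (chr8:71537567-71537622, minus strand): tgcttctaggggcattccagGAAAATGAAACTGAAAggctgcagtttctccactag
Gbp3 (chr3:142559979-142560034, plus strand): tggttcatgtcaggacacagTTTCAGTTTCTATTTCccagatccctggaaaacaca
Ifit1 (chr19:34640765-34640833, plus strand): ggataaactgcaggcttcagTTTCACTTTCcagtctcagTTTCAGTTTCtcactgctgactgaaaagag
Ifit3 (chr19:34583353-34583436, plus strand): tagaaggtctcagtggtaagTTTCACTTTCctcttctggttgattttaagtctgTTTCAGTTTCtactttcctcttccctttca
Stat2 (chr10:128270256-128270305, plus strand): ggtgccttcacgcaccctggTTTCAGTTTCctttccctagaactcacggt
Trim30a (chr7:104465200-104465249, minus strand): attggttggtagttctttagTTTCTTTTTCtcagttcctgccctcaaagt
Rsad2 (chr12:26456543-26456592, minus strand): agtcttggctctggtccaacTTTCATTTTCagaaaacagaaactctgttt
Ifit1 and Ifit3, neighbours on chromosome 19, each hold 2 separate copies, and Isg15 holds 3 overlapping ones. Ifih1, Ddx58, Eif2ak2 and Ifitm3 hold the letters only after the start. A match describes the letters and does not show that a factor binds there, and a window without a match shows only that these letters are not in it.

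Expression of the group was low and uneven. Divided by the length of the longest coding transcript, levels ran from 43.9 CPM per kb for Adar, which edits adenosine to inosine in double-stranded RNA, down to 0.0440 CPM per kb for Zbp1, a sensor of left-handed nucleic acid. Next after Adar came Ifi27, a small mitochondrial protein, at 29.2 CPM per kb, then Ifitm3, which blocks viral entry at endosomes, at 14.3, Stat2 at 6.77 and Ifit3 at 6.61. Stat2 and Ifit3 differed by less than their spread between libraries. In all, 23 members exceeded 1 CPM per kb. Isg15, a common readout of an active response, lay in the middle of the order at 1.66 CPM per kb, and others lay near the bottom: Irf7 at 0.726, Rsad2 at 0.487, Oas1a at 0.386 and Ifi44 at 0.316 CPM per kb. The tested members had a median level of 6.94 CPM, against 29.7 CPM over all 13287 genes tested.

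**Figure D1:**
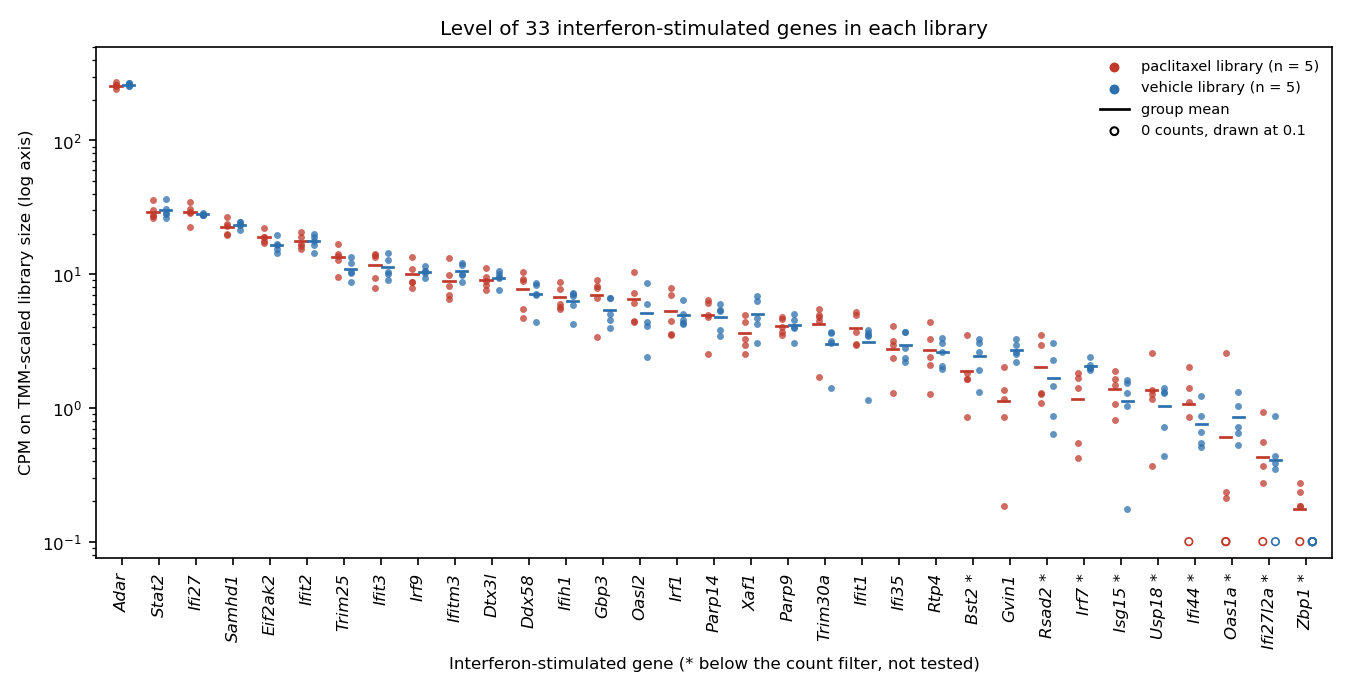
Level of each of the 33 members in every library, as CPM on a log axis, with the 5 paclitaxel libraries in red, the 5 vehicle libraries in blue, lines at the group means and open points at the foot for a count of 0. Asterisks mark members that were not tested. Adar stands far above the rest at 241 to 274 CPM, most members lie under 30 CPM, and the points of the groups are intermixed for nearly every member.

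No member passed the threshold of 0.05 after adjustment over all genes (edgeR's quasi-likelihood test with Benjamini-Hochberg adjustment), where 0 of 13287 genes, 0% of the background, passed and the smallest adjusted p was 0.792. At an unadjusted p under 0.05 stood 1 of the 24 tested members (4.17%), Gvin1, against 806 of all genes (6.07%). Gvin1 was lower, as were 3.12% of all genes at that level. No member was higher at that level, against 2.94% of all genes. Groups that did not overlap were found for Gvin1 alone among the tested members (4.17%), against 1.09% of all genes. All of these shares lie near the background or rest on this 1 gene. Of the tested members 15 (62.5%) had a log2 fold change above 0, against 49.1% of all genes, and 9 below. The median log2 fold change was 0.035, against -0.0027 over all genes. Its direction rested on single libraries: it was -0.029 without paclitaxel replicate 2, -0.018 without vehicle replicate 5 and 0.14 without paclitaxel replicate 3. RNA from whole cord cannot tell fewer cells of a type from less RNA per cell.

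The intervals limit what could have gone unseen in the 24 tested members, and only in those. The 95% interval of the fold change spanned no change for 23 of the 24 tested members. It lay within 2-fold in both directions for 21 members and within 1.5-fold for 14. The tested members were noisier than the average gene, with a median standard error of 0.20 on the log2 scale against 0.10 over all genes, beside their lower level. Their median absolute log2 fold change was 0.12, against 0.078.

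**Figure D2:**
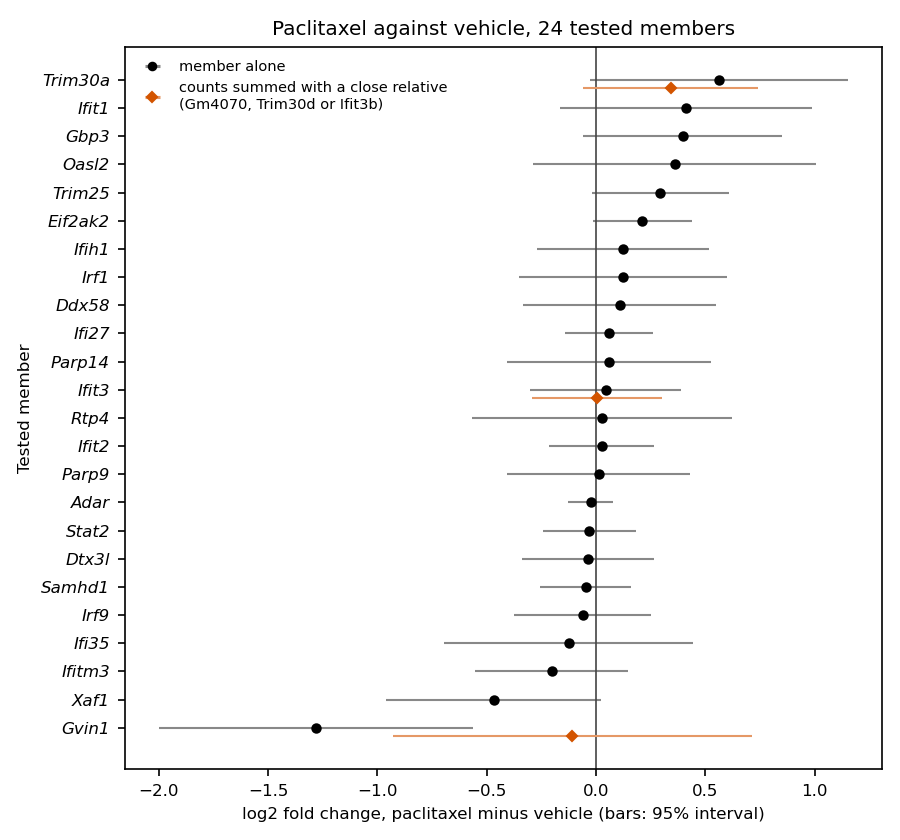
Log2 fold change of the 24 tested members, paclitaxel minus vehicle, with 95% intervals, ordered by size. Black points are single genes and orange diamonds are counts summed with a close relative. All intervals but that of Gvin1 cross 0, and the interval of Gvin1 summed with Gm4070 crosses 0 too.

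None of the transcription factors that carry the signal passed the test. Stat2, the interferon-specific STAT, stood at 30.2, 35.7, 27.2, 27.8 and 26.2 CPM in paclitaxel replicates 1 to 5 and at 30.6, 36.3, 28.4, 26.3 and 28.8 CPM in vehicle replicates 1 to 5. The groups overlapped almost completely, and replicate 2 was the highest in each. For Stat2 the log2 fold change was -0.03 (95% interval -0.24 to 0.18, SE 0.10, edgeR adjusted p = 0.974). Irf9, the DNA-binding partner of Stat2, was at 11.02, 13.5, 8.70, 8.73 and 7.89 CPM with paclitaxel and 9.40, 11.5, 10.1, 10.6 and 10.5 CPM with vehicle. The paclitaxel libraries of Irf9 reached below and above the vehicle range, with replicate 1 inside it (log2 fold change -0.06, SE 0.15, adjusted p = 0.962). Irf1, a factor induced by interferon gamma, gave 0.12 (SE 0.23), with its highest value, 7.95 CPM, in paclitaxel replicate 2 and its lowest, 3.49 CPM, in paclitaxel replicate 5.

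Irf7, the factor that amplifies type I interferon production, had too few counts for the test. It had 6, 9, 2, 2 and 10 counts in paclitaxel replicates 1 to 5 and 11, 12, 9, 11 and 15 in vehicle replicates 1 to 5, which came to 1.41, 1.66, 0.424, 0.546 and 1.84 CPM against 1.99, 2.10, 1.98, 2.39 and 1.92 CPM. Every paclitaxel library lay below every vehicle library, but by as little as 1.84 against 1.92 CPM. Among the 9 members below the filter Irf7 was the only 1 without overlap. Of the tested genes 1.09% had no overlap, and the share among genes with counts as low as these was not computed. In a fit without the filter on low counts the log2 fold change was -0.74 (95% interval -1.46 to -0.02, SE 0.36, unadjusted p = 0.0437, edgeR adjusted p = 0.82). The difference therefore did not pass the test, and it rests on 29 counts in all against 58.

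All 3 tested sensors of viral RNA and their cofactors had a log2 fold change above 0, and none passed the test. Trim25, the ubiquitin ligase that activates the sensor RIG-I, was at 14.1, 16.8, 9.55, 13.6 and 12.7 CPM with paclitaxel and 12.1, 13.4, 10.3, 10.2 and 8.71 CPM with vehicle. Paclitaxel replicate 3 was below the vehicle mean of 10.96 CPM and the other 4 paclitaxel libraries were above it. Trim25 had a log2 fold change of 0.29 (95% interval -0.02 to 0.61, SE 0.15, edgeR adjusted p = 0.80). It was 0.19 without paclitaxel replicate 2 and 0.40 without paclitaxel replicate 3. The edgeR unadjusted p without paclitaxel replicate 3 was 0.00983, not past adjustment. That was the lowest of 10 fits with a single library left out, where p reached 0.243. Ifih1, which encodes the long double-stranded RNA sensor MDA5, gave 0.12 (SE 0.19), and Ddx58, which encodes RIG-I, gave 0.11 (SE 0.21). For Zbp1 a single count was found in each of 4 paclitaxel libraries and none in the other or in the 5 vehicle libraries. A count of 0 in a vehicle library allows up to 0.385 to 0.660 CPM, above the highest paclitaxel value of 0.273 CPM. In all there were 4 counts against 0, too few for a fold, and the fit without the filter on low counts gave an unadjusted p of 0.02 (edgeR adjusted p = 0.82).

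Among the effectors that bind or edit RNA, 5 of 6 tested members were above 0 and none passed. Adar was at 273.5, 257.9, 241.4, 258.1 and 255.1 CPM with paclitaxel and 254.7, 267.1, 254.3, 267.4 and 264.5 CPM with vehicle. It was the most precisely measured member, and its groups overlapped. Adar had a log2 fold change of -0.025 (95% interval -0.13 to 0.08, SE 0.05, edgeR adjusted p = 0.952). Gene counts add the constitutive and the interferon-inducible isoforms of Adar together.

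Ifit1, which binds viral RNA lacking host cap methylation, was at 4.92, 5.18, 2.97, 3.00 and 3.67 CPM with paclitaxel and 3.62, 3.84, 3.52, 3.47 and 1.15 CPM with vehicle. Vehicle replicate 5 lay far below the other 4, and paclitaxel values fell below, among and above those. Ifit1 had a log2 fold change of 0.41 (95% interval -0.17 to 0.99, SE 0.28, edgeR adjusted p = 0.819), and it was 0.14 without vehicle replicate 5. Its partner Ifit3 was at 9.38, 14.2, 7.85, 13.9 and 13.4 CPM with paclitaxel and 10.3, 14.5, 9.02, 9.98 and 12.7 CPM with vehicle. These groups overlapped (log2 fold change 0.04, SE 0.17, adjusted p = 0.981). The near-identical copy Ifit3b shares reads with it, and Ifit3 took 50.7 to 74.5% of their joint CPM, and their sum gave 0.0040 (SE 0.14). Ifit2, of the same family, gave 0.025 (SE 0.12). Oasl2, an OAS-like protein, gave 0.36 (SE 0.30), with 0.11 without paclitaxel replicate 2, where it was highest, and 0.63 without vehicle replicate 2. The edgeR unadjusted p without vehicle replicate 2 was 0.0319, not past adjustment. It was the lowest of 10 fits with a single library left out, where p reached 0.69. Oas1a, which makes the messenger that activates RNase L, ranged from 0 to 2.59 CPM with paclitaxel and from 0.524 to 1.32 CPM with vehicle.

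Eif2ak2, the kinase PKR that halts translation, was chosen for display after its values were seen. It was at 17.6, 22.2, 17.2, 19.1 and 19.1 CPM with paclitaxel and at 16.8, 16.4, 14.5, 19.5 and 15.4 CPM with vehicle. All 5 paclitaxel libraries exceeded the vehicle mean of 16.5 CPM, but vehicle replicate 4 exceeded 4 of them. The log2 fold change was 0.21 (95% interval -0.02 to 0.44, SE 0.11, edgeR adjusted p = 0.80).

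Isg15, a ubiquitin-like modifier and a standard readout of the pathway, had few counts, though its level per kb lay in the middle of the members. It stood at 1.88, 1.48, 1.06, 0.819 and 1.65 CPM with paclitaxel and at 1.63, 0.175, 1.54, 1.302 and 1.03 CPM with vehicle. The groups overlapped, with 33 counts in all against 31. Usp18, the protease that removes Isg15 from proteins and damps the receptor, had 32 counts against 30. Neither was tested, so both members of the Isg15 system are known here only at this depth.

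In the group of ADP-ribosylation enzymes and their ligase partner, 2 of 3 members were above 0 and none passed. Dtx3l, a ubiquitin ligase that works with Parp9, was at 8.91, 11.1, 8.28, 7.64 and 9.54 CPM with paclitaxel and 9.58, 9.96, 10.6, 7.60 and 9.36 CPM with vehicle. The groups overlapped over nearly their whole range (log2 fold change -0.04, SE 0.15, edgeR adjusted p = 0.981). The annotated spans of Dtx3l and Parp9 overlap on chromosome 16, and the strand setting of the counting is not given, so reads in the overlap could be split between them. Their sum gave -0.024 (SE 0.12), Parp9 alone 0.012 (SE 0.20) and Parp14 0.06 (SE 0.23).

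Of the restriction factors acting at membranes or on nucleotides, 1 of 3 tested was above 0 and none passed. Samhd1, which depletes the nucleotide pool, was at 23.9, 19.8, 19.95, 22.9 and 26.8 CPM with paclitaxel and 21.3, 24.6, 23.3, 24.7 and 23.2 CPM with vehicle. Its paclitaxel values reached below and above the vehicle range, with replicates 1 and 4 inside it (log2 fold change -0.05, SE 0.10, 95% interval -0.26 to 0.16, edgeR adjusted p = 0.956). Ifitm3 gave -0.20 (SE 0.17, adjusted p = 0.847), with -0.39 without paclitaxel replicate 2, its highest library at 13.1 CPM, and -0.12 without paclitaxel replicate 3. The edgeR unadjusted p without paclitaxel replicate 2 was 0.0274, not past adjustment. It was the lowest of 10 fits with a single library left out, where p reached 0.496. Rtp4, an interferon-induced chaperone of receptors, gave 0.027 (SE 0.29). Bst2, which tethers budding virions, ranged from 0.849 to 3.51 CPM with paclitaxel and from 1.32 to 3.25 CPM with vehicle. Rsad2, the enzyme viperin, ranged from 1.09 to 3.52 and from 0.641 to 3.08 CPM.

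The interferon-inducible GTPases pointed in opposite directions. Gbp3, a guanylate-binding protein, was at 8.20, 9.06, 3.396, 7.91 and 6.61 CPM with paclitaxel and 3.98, 6.64, 6.60, 4.56 and 5.00 CPM with vehicle. Paclitaxel replicate 3 was the lowest of all 10 libraries and the other 4 paclitaxel libraries lay between 6.61 and 9.06 CPM, against a highest vehicle value of 6.64 CPM. For Gbp3 the log2 fold change came to 0.40 (95% interval -0.06 to 0.85, SE 0.22, edgeR adjusted p = 0.80), and it was 0.57 without paclitaxel replicate 3. The edgeR unadjusted p without that library was 0.00468, not past adjustment. It was the lowest of 10 fits with a single library left out, where p reached 0.25.

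Gvin1, a very large GTPase at chr7:106156535-106215340 (RefSeq, GRCm38.p6), was at 1.17, 0.185, 0.849, 1.36 and 2.02 CPM with paclitaxel and at 2.53, 2.62, 2.20, 3.26 and 2.95 CPM with vehicle. Every paclitaxel library lay below every vehicle library. For Gvin1 the log2 fold change was -1.28 (95% interval -1.999 to -0.56, SE 0.35, unadjusted p = 0.00118, edgeR adjusted p = 0.792). It passed the filter on low counts through the vehicle group, its counts totalled 25.9 against 77.2, and they were not whole in any of the 10 libraries, as happens where the counting divides reads between genes.

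Gm4070, a gene of the same family at chr7:105895118-105953967 that RefSeq lists under a shared synonym, held most of the joint CPM. It stood at 13.8, 31.1, 6.16, 11.5 and 10.5 CPM with paclitaxel and at 14.1, 11.5, 15.8, 19.5 and 12.6 CPM with vehicle. Paclitaxel replicate 2, the lowest library for Gvin1, was the highest for Gm4070. Gvin1 made up 7.81, 0.592, 12.1, 10.6 and 16.2% of their joint CPM with paclitaxel and 15.2, 18.5, 12.2, 14.3 and 19.0% with vehicle. The sum of both genes was 15.7 ± 9.17 CPM (SD, n = 5) with paclitaxel and 17.4 ± 3.32 CPM (SD, n = 5) with vehicle. This sum had a log2 fold change of -0.11 (95% interval -0.93 to 0.71, SE 0.36, edgeR adjusted p = 0.975), and Gm4070 alone gave 0.04 (SE 0.40). The summed counts, an alternative added after the data were seen, had an unadjusted p of 0.771 (edgeR adjusted p = 0.975). With Gm4070 held at its vehicle mean, the lower mean of Gvin1 alone would move the sum by only -0.14 on the log2 scale, less than its standard error, so the sum could not have shown a change limited to Gvin1. How much of the difference in Gvin1 arose in the division of shared reads was not tested.

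**Figure D3:**
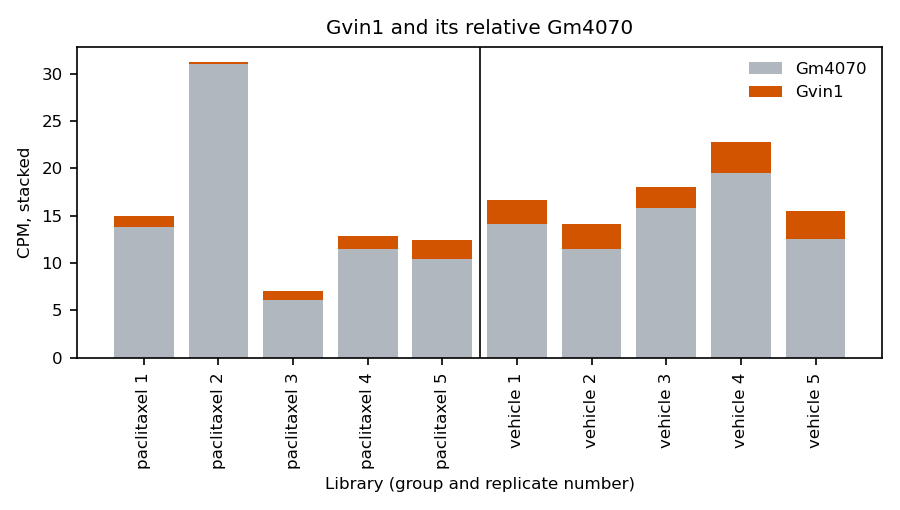
Stacked bars of the CPM of Gm4070 (grey) and Gvin1 (orange), whose full height is their sum, in each of the 5 paclitaxel and 5 vehicle libraries. Gvin1 alone separates the groups, at 0.185 to 2.02 against 2.20 to 3.26 CPM, while the sums overlap at 7.01 to 31.2 against 14.2 to 22.8 CPM.

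The remaining members act at mitochondria, in cell death or in ways less well known. Ifi27 was at 30.7, 34.6, 22.7, 28.7 and 29.0 CPM with paclitaxel and 27.5, 28.8, 27.9, 28.0 and 27.8 CPM with vehicle. The vehicle libraries were almost equal, and paclitaxel replicates 2 and 3 were the extremes on either side (log2 fold change 0.06, SE 0.10, edgeR adjusted p = 0.943). Ifi27 lies inside the annotated span of Ifi27l2a on chromosome 12 and took 97.0 to 100% of their joint CPM, and the low Ifi27l2a had 10 counts in all against 11. Xaf1, an antagonist of inhibitors of apoptosis shown after its values were seen, was at 4.92, 2.96, 2.55, 3.27 and 4.40 CPM with paclitaxel and 4.70, 6.81, 3.08, 6.29 and 4.23 CPM with vehicle. All 5 paclitaxel libraries lay below the vehicle mean of 5.02 CPM, but the groups overlapped (log2 fold change -0.47, SE 0.24, adjusted p = 0.80). Ifi35 gave -0.13 (SE 0.28), and Ifi44 was under 2.1 CPM in every library.

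Trim30a, a regulator of innate signalling likewise shown after its values were seen, was at 4.45, 4.99, 1.70, 5.46 and 4.77 CPM with paclitaxel and 3.62, 3.14, 3.08, 3.69 and 1.41 CPM with vehicle. Within each group 1 library, paclitaxel replicate 3 or vehicle replicate 5, lay far below the rest, and the other 4 paclitaxel libraries were above all vehicle libraries. The log2 fold change of Trim30a was 0.56 (95% interval -0.03 to 1.15, SE 0.29, edgeR adjusted p = 0.80). It was 0.33 without vehicle replicate 5 and 0.77 without paclitaxel replicate 3. The edgeR unadjusted p without paclitaxel replicate 3 was 0.0044, not past adjustment. That was the lowest of 10 fits with a single library left out, where p reached 0.231. Its relative Trim30d was highest in vehicle replicate 5 at 4.49 CPM, and the sum of both genes gave 0.34 (SE 0.19, adjusted p = 0.803).

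Members tended to be high or low in the same libraries, within as well as across the groups. Paclitaxel replicate 2 held the highest value of 12 of the 24 tested members, against 7.94% of all tested genes. Paclitaxel replicate 3 held the highest value of no member, against 19.7% of all genes, and the lowest of 7 (29.2%, against 20% of all genes). The mean deviation of the members from the vehicle mean was 0.10, 0.20, -0.33, 0.03 and 0.0062 on the log2 CPM scale in paclitaxel replicates 1 to 5, and 0.03, 0.22, -0.09, 0.0047 and -0.17 in vehicle replicates 1 to 5. The highest and the second highest library thus came from opposite groups, and the spread within each group exceeded the difference between them. Paclitaxel replicate 3 lay below the vehicle mean for 21 of 24 members and vehicle replicate 5 for 20, while vehicle replicate 2 lay above it for 21.

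**Figure D4:**
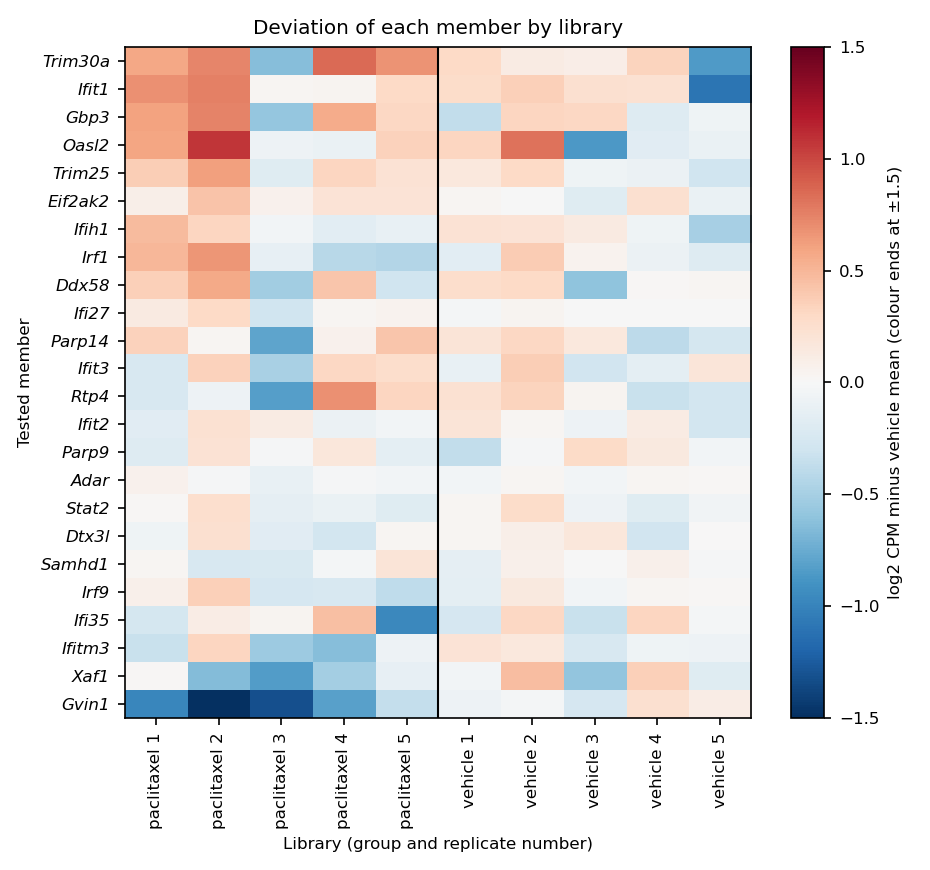
Deviation of each tested member from its vehicle mean in log2 CPM, with members as rows and the 10 libraries as columns, red for higher and blue for lower. Paclitaxel replicate 2 and vehicle replicate 2 are mostly red, paclitaxel replicate 3 and vehicle replicate 5 mostly blue, and Gvin1 is blue in all 5 paclitaxel libraries.

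Other gene lists moved with these libraries. The mean deviation of the microglia markers was 0.16 in paclitaxel replicate 2, -0.28 in paclitaxel replicate 3 and -0.23 in vehicle replicate 5, and that of the endothelium markers was 0.34, -0.49 and -0.25 in the same libraries. Glucocorticoid response genes ran the other way, at -0.40, 1.79 and 0.86. In paclitaxel replicate 3 the markers of oligodendrocytes (-0.30) and erythrocytes (-1.25) were low as well. Vehicle replicate 1 had microglia at 0.16, endothelium at 0.12 and glucocorticoid response genes at -0.62, with members at only 0.03. Vehicle replicate 2, where members were also high, had 0.09, 0.08 and -0.40 for these lists. In vehicle replicate 4 the glucocorticoid response genes were at 0.365, with members at 0.0047. All 10 microglia markers were tested, and their summed level was 286.6 to 381.3 CPM with paclitaxel and 287.5 to 357.2 CPM with vehicle. Endothelium markers, 8 of 8 tested, summed to 171.5 to 267.3 and 183.8 to 242.8 CPM. Markers of T and NK cells summed to at most 1.66 CPM, with Cd3d at 0 throughout. Those of B cells summed to at most 0.546 CPM, with Ms4a1 at 0. Monocyte and border macrophage markers summed to 2.73 to 5.73 CPM with paclitaxel and 1.98 to 4.34 CPM with vehicle. Neutrophil markers summed to 0.273 to 2.76 and 0.175 to 7.95 CPM, highest in vehicle replicate 1. Dendritic cell markers summed to 38.7 to 44.3 and 35.9 to 47.0 CPM, of which Flt3 alone averaged 30.1 CPM. The part of these markers in the levels of the members was not tested. Markers of neurons summed to 3762 to 3981 CPM, those of astrocytes to 4628 to 5357 CPM and those of oligodendrocytes to 20130 to 23710 CPM, as the label of spinal cord implies.

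**Figure D5:**
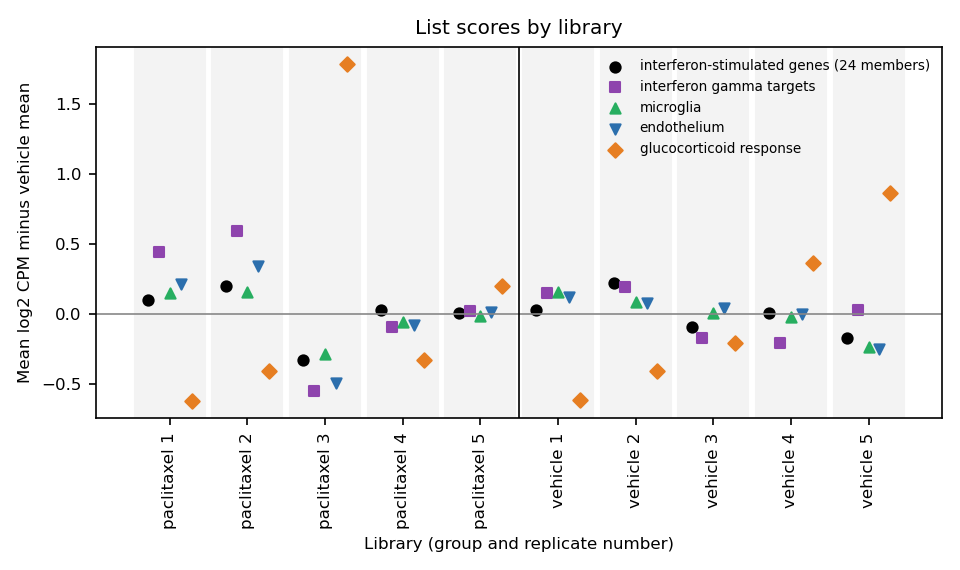
Mean deviation from the vehicle mean, in log2 CPM, of the members, the interferon gamma targets and 3 marker lists in each of the 10 libraries. The members, microglia and endothelium are low in paclitaxel replicate 3 and vehicle replicate 5, where the glucocorticoid response genes are high at 1.79 and 0.86.

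Co-variation was then measured against Stat2, because Irf7 was not tested. Across the 10 libraries 20 of the 23 other tested members had a positive Pearson r with Stat2, with a median of 0.36. None passed adjustment over the 23 (permutation test, 100000 resamples), and 4 stood at an unadjusted p under 0.05, namely Irf1, Irf9, Oasl2 and Dtx3l. The shares of all tested genes with a positive r or such a p against Stat2 were not computed. The 20 and the 4 therefore stand without a background and are not a result about the members. Irf9 had r = 0.76 (permutation p = 0.00866, adjusted 0.0996) and rho = 0.72 (permutation p = 0.0229, adjusted 0.345). Irf1 had r = 0.79 (permutation p = 0.00835, adjusted 0.0996) and rho = 0.62 (permutation p = 0.06065, adjusted 0.345). Without vehicle replicate 2 and paclitaxel replicate 2, the libraries farthest from the median of Stat2, r fell to 0.46 for Irf9, 0.54 for Irf1 and 0.28 for Oasl2, so these relations rest in part on those libraries. After subtraction of group means, none passed either, and the median r was 0.43. Within groups of 5 libraries no r was computed. Over all 276 pairs of tested members the median r was 0.26 and 76.1% were positive, against a median of -0.00086 and 49.9% over all pairs of tested genes. All pairs come from the same 10 libraries and are not independent of each other, so no p is given. What made the members vary together, cell make-up included, was not tested.

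In the rest of the interferon pathway 0 genes passed adjustment in each list named here. Of 21 interferon genes, 19 had no count in any library, and the others, Ifnz and Ifng, summed to 3.33 counts. Of 10 receptor and JAK-STAT genes, 7 were above 0 and 3 below. The lowest p was that of Ifngr1, a chain of the interferon gamma receptor, at 20.6, 19.6, 19.95, 19.6 and 18.7 CPM with paclitaxel and 16.1, 17.3, 19.8, 17.1 and 14.6 CPM with vehicle. Vehicle replicate 3 alone reached the paclitaxel range (log2 fold change 0.22, SE 0.10, unadjusted p = 0.0415, edgeR adjusted p = 0.799). Jak2 gave 0.10 and Tyk2 -0.13. Of 14 tested genes that induce interferon, 6 were above 0 and 8 below. Tlr9, the receptor for unmethylated DNA, gave 0.68 (SE 0.30, unadjusted p = 0.0304, adjusted p = 0.792), Mavs, the adaptor of the RNA sensors, -0.17, and Tlr3 0.13.

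Of 6 tested negative regulators 2 were above 0 and 4 below. Irf2, a repressor of response elements, gave -0.25 (SE 0.11, unadjusted p = 0.0285, edgeR adjusted p = 0.792), Ptpn6 0.44 and Pias1 0.14. A further 28 tested interferon-stimulated genes, outside the 33, divided into 14 above 0 and 14 below, with a median of 0.011. Those of lowest p were Slfn5, a growth regulator, at -0.43 (SE 0.19, unadjusted p = 0.0372), Daxx, a histone chaperone, at -0.23 (SE 0.11, unadjusted p = 0.0443), and Tor3a at 0.30. The 4 lists held 1 of 10, 1 of 14, 1 of 6 and 2 of 28 tested genes at an unadjusted p under 0.05, beside 6.07% of all genes, which is 2.94% higher and 3.12% lower.

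Members with the response element letters in the promoter window and members without them can be set side by side. Of the 9 tested members with the letters, 7 were above 0 and 2 below, with a median log2 fold change of 0.12. Of the 10 tested members whose window lacked them, 4 were above 0 and 6 below, with a median of -0.03. In the first set Ifih1, Ddx58, Eif2ak2 and Ifitm3 hold the letters only after the start. Gvin1, Parp9, Parp14, Rtp4 and Ifi27 had no window and are in neither set. Over single libraries left out, Ifih1, Ddx58, Stat2 and Ifit3 of the first set changed sign. So did Irf1, Irf9, Ifit2, Dtx3l, Samhd1 and Ifi35 of the second. None of either set passed adjustment, and the difference between the sets was not tested.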

How the data were processed

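mRNA of lumbar cord was sequenced in 5 paclitaxel and 5 vehicle libraries. The deposited table holds expected counts per gene, which divide reads shared between genes by a model. The authors used STAR, RSEM, edgeR 4.2.0 and the build mm10, per the submitters' processing notes. Versions of the aligner and counter, annotation and strand setting were not given in the sources used here. Of the values, 5.04% were not whole (tolerance 0.001), and all were rounded before testing. The filter was filterByExpr (minimum count 10, minimum total 15), which left 13287 of 18535 genes with a count. The test was edgeR 4.0.16 (R 4.3.3) quasi-likelihood with TMM scaling, robust dispersions and no covariate, two-sided, adjusted by Benjamini-Hochberg at 0.05. CPM uses TMM-scaled library sizes, and log2 CPM a prior count of 2. Floors of 3 counts cover counting error only. The test script was checked on simulated counts.

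Members, gene lists, tests and alternatives were chosen with earlier results of these data known. Values in every library were given for members at an unadjusted p under 0.05, for the tested member of highest mean in each role, and for Irf7, Irf9, Stat2, Isg15, Ifit1, Ifit3 and Gvin1. Of each pathway list up to 3 tested genes of lowest p were named. Irf7 was the planned reference for co-variation, with Stat2 in its place if Irf7 was not tested. Sequences come from RefSeq (GRCm38.p6), lengths from GENCODE M21. Same-numbered libraries deviated together with r from -0.10 to 0.14, so the numbers were not taken as pairs. Alternatives were other scalings, other filters, DESeq2 1.42.0, limma-voom (limma 3.58.1), a replicate block, leaving out each library and, added after the data were seen, leaving out paclitaxel replicate 3 with vehicle replicate 4, summing counts of related or overlapping genes, and Irf7 as reference.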

Additional observations from a re-analysis of the deposited data

Results flagged for a closer look

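In 3 of the 48 sets of 5 values (24 tested members in each group), 1 library lay far from the others of its group by Dixon's criterion, which chance meets in about 1 in 20 sets. Ifit1 was at 1.15 CPM in vehicle replicate 5, against 3.47 to 3.84 CPM in the other vehicle libraries. Trim30a was at 1.70 CPM in paclitaxel replicate 3, against 4.45 to 5.46 CPM in the other paclitaxel libraries. Trim30a was also at 1.41 CPM in vehicle replicate 5, against 3.08 to 3.69 CPM in the other vehicle libraries. Trim30d, its relative, was highest in that library at 4.49 CPM, and the sum of both genes there was 5.90 CPM.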

How the results depend on the processing

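No member passed adjustment under any alternative run. Over all genes the count past adjustment was 1 with DESeq2, 1 with the replicate block and 0 under the others, and neither was a member. Members at an unadjusted p under 0.05 numbered 1 of 24 in the main fit, beside 6.07% of all genes. With no filter on low counts they were 4 of 33, beside 5.52% of all genes. These were Gvin1, Irf7, Trim30a and Zbp1, whose fitted change rests on a vehicle group at 0. With at least 1 CPM in 5 libraries they were 2 of 29, Gvin1 and Irf7, beside 5.93% of all genes. Over single libraries left out they were 1 to 5 of 24 to 27 tested, beside 3.82 to 9.78% of all genes. That share was lowest without vehicle replicate 3 (2 of 26 members) and highest without vehicle replicate 1 (2 of 25 members). Without both paclitaxel replicate 3 and vehicle replicate 4 they were 5 of 27, beside 3.78% of all genes. With related counts summed they were 0 of 23, beside 6.06% of all genes, where the sum could not have shown a change in Gvin1 alone. The 5 of 27 without paclitaxel replicate 3 alone, beside 4.81% of all genes, were Eif2ak2, Gbp3, Gvin1, Trim25 and Trim30a. The number of members past adjustment for co-variation with Stat2 was 0 to 1 across libraries left out, the 1 being Irf9 without vehicle replicate 4, and 0 with Irf7 as reference. With the replicate number as a block 2 of 24 members stood at an unadjusted p under 0.05 (6.31% of all genes; Gvin1 and Trim25), and the pairing is not given by the labels. Except where given, the cause of a change was not tested.

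Members near 0 changed sign. Rtp4 was -0.034 with limma-voom, Adar 0.0042 and Samhd1 0.014 without both libraries named, and Parp9 -0.024 with counts summed. Over single libraries left out, the log2 fold change ran from -0.016 to 0.19 for Ifih1, -0.037 to 0.24 for Ddx58, -0.0895 to 0.26 for Irf1, -0.21 to 0.022 for Irf9, -0.11 to 0.050 for Stat2, -0.051 to 0.086 for Ifit2, -0.039 to 0.16 for Ifit3, -0.069 to 0.087 for Parp9, -0.12 to 0.015 for Dtx3l, -0.067 to 0.23 for Parp14, -0.16 to 0.205 for Rtp4, -0.12 to 0.0057 for Samhd1, -0.012 to 0.14 for Ifi27 and -0.27 to 0.078 for Ifi35. The other 10 tested members kept their sign over single libraries left out. At this depth 9 members fell below the filter on low counts and were not tested.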

Other observations

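Targets of interferon gamma were higher in some paclitaxel libraries and lower in others. Of 12 tested targets 8 were above 0 and 4 below, with a median log2 fold change of 0.19 and none at an unadjusted p under 0.05. Gbp6, a guanylate-binding protein, was at 7.97, 9.06, 4.25, 5.18 and 5.69 CPM with paclitaxel and 4.34, 6.46, 3.74, 4.56 and 5.13 CPM with vehicle. The groups overlapped, and paclitaxel replicate 2 was the highest library (log2 fold change 0.40, SE 0.21, edgeR unadjusted p = 0.0712). Gbp5 gave 0.42 and Gbp2 0.35. All 25 listed targets together summed to 87.9, 112.6, 49.5, 61.1 and 66.4 CPM in paclitaxel replicates 1 to 5 and to 70.7, 77.7, 60.1, 61.2 and 65.8 CPM in vehicle replicates 1 to 5. The paclitaxel libraries thus spanned both the highest and the lowest sum.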
